A study of Mus musculus with 44 samples.

Results

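Zfp352, Tcstv1, Tcstv3, Tmem92 and Sp110 are genes known for their transcripts in the mouse two-cell embryo, and all 5 were found by name among the 35269 genes of the table. They were followed in 44 two-cell embryos, each sequenced as a separate Smart-seq2 library. The embryos came from natural matings of C57Bl/6 mice. The maternal knockout females carried a double conditional allele spanning Dppa4 exon 2 to Dppa2 exon 7, which Zp3-Cre removes in the growing oocyte. The question of these comparisons was whether loss of maternal, or of maternal and zygotic, Dppa2 and Dppa4 alters transcripts of zygotic genome activation.

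The embryos fell into 4 groups. There were 14 Dppa2/4+/+ embryos from control females and wild-type males (10 from the first litter and 4 from the second). There were 15 Dppa2/4+/- embryos from maternal knockout females and wild-type males (7 and 8), called embryos of wild-type sires below. Maternal knockout females mated with heterozygous males gave 5 Dppa2/4+/- embryos (4 and 1), called embryos of heterozygous sires, and 10 Dppa2/4-/- embryos (3 and 7). In the last 3 groups the mother's oocyte lacked both genes, and the paternal allele set the genotype of the embryo. The authors told the Dppa2/4+/- and Dppa2/4-/- embryos of heterozygous sires apart by their Dppa2 and Dppa4 transcripts, so a difference in these transcripts between them follows from the assignment. Those 2 groups shared their 2 litters. Each of the other 4 litters belonged to a single group, so that in any comparison with Dppa2/4+/+ embryos the effects of litter and of genotype cannot be told apart.

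Zygotic genome activation is the start of transcription from the embryo's own genome, and its main wave in the mouse falls at the two-cell stage. Some genes of this wave are silent or low in the oocyte, rise within hours and are shut off again by the following divisions. In mouse embryonic stem cells, DPPA2 and DPPA4 form a heterodimer that binds chromatin and promotes Dux, a homeobox gene whose product switches on many of these genes in the rare 2C-like cells. Zfp352 encodes a C2H2 zinc finger protein. Tcstv1 and Tcstv3 belong to the two-cell-stage, variable group of genes, a tandem cluster that encodes small proteins linked to telomere length in embryonic stem cells. Tmem92 encodes a transmembrane protein and is widely used as a marker of 2C-like cells. Sp110 encodes a nuclear body protein of the SP100 family, known in adult mice for macrophage defence against intracellular bacteria.

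The genes lie at 5 places on 4 chromosomes of GRCm38, and the deposited coordinates are those of the GENCODE annotation. Zfp352 spans 90218820 to 90225702 on the forward strand of chromosome 4, with 2 exons in the listed transcript. Tcstv1 spans 119893388 to 119894785 on the reverse strand of chromosome 13 and Tcstv3 spans 120316878 to 120318178 on its forward strand, each with 2 exons. Tmem92 spans 94777217 to 94782703 on the reverse strand of chromosome 11, with 5 exons. Sp110 spans 85576899 to 85598817 on the reverse strand of chromosome 1, with 12 exons. Sp110 overlaps a gene on the opposite strand, G530012D18Rik, by 397 bp, and reads of the 2 genes cannot be told apart there because the counting ignored strand.

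Tcstv1 and Tcstv3 are shown side by side because their similarity bears on how far their reads can be separated. Their coding sequences, of 516 and 510 bases, were identical at 483 of 516 aligned positions (93.6%), with 27 mismatches and 6 gap positions. The 120 coding bases that differ most, positions 338 to 457 of each coding sequence in the GENCODE transcripts, lie in exon 2 at chr13:119893638-119893757 on the reverse strand for Tcstv1 and at chr13:120317904-120318023 on the forward strand for Tcstv3. The 13 differing bases are in capitals.
Tcstv1: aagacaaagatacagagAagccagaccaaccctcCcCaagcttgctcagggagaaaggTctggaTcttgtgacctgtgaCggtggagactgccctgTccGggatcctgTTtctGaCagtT
Tcstv3: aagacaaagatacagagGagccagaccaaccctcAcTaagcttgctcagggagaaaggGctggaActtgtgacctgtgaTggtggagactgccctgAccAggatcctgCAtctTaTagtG
Of all 75-base windows of the listed Tcstv1 transcript, 12.1% also occur in a transcript of another gene, and 9.36% occur in Tcstv3. The share was 14.3% for Tcstv3, 31.5% for Sp110, 2.86% for Zfp352 and 0.762% for Tmem92. The Sp110 windows recur in transcripts of 20 other genes. The authors kept reads with a MAPQ score of at least 20, so a level of Sp110, Tcstv1 or Tcstv3 may hold fewer of the reads from such windows, or some from a close copy.

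RefSeq promoters (GRCm38.p6) were at hand for 2 of the 5 members, Zfp352 and Sp110. The 250 bases before the Zfp352 start at 90218820 and before the upstream of 2 Sp110 starts, at 85603891, are shown because both carry repeated copies of a short motif. Capitals mark TAATCC, the core that paired-like homeodomain proteins such as OTX2 and CRX recognise, and TATAAG, which resembles a TATA box, on either strand. Both motifs were chosen after the sequences had been read.
Zfp352 (chr4:90218570-90218819, forward strand): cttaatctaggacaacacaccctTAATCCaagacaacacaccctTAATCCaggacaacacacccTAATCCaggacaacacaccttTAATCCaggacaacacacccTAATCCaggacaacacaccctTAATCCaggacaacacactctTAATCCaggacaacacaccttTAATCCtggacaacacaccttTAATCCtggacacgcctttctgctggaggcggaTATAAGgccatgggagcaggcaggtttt
Sp110 (chr1:85603892-85604141, reverse strand): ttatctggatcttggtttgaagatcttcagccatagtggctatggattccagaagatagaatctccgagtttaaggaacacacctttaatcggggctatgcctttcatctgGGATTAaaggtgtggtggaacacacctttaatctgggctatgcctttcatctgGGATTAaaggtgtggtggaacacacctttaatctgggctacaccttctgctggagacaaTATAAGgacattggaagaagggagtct
The Zfp352 promoter held 9 copies of TAATCC, all on the forward strand, and it was the 1 promoter with at least 9 copies among the 32851 in the table (0.00304%). At least 1 copy, on either strand, was present in 6.25% of all promoters. The upstream Sp110 promoter held 2 copies, both on the opposite strand, and 0.295% of promoters held at least 2. Both promoters held 1 TATAAG, as did 6.65% of all promoters with at least 1. Their longest shared stretch is 15 bases, aacacacctttaatc, which occurred on either strand in 23 of the 32851 promoters (0.07%). The upstream start lies outside the span over which Sp110 was counted. The downstream Sp110 start, at 85598810, lies within it, shared at most 10 bases in a row with the Zfp352 promoter, and had 1 copy of TAATCC and 0 of TATAAG. These matches describe the letters and do not show binding. Promoters of Tcstv1, Tcstv3 and Tmem92 were not analysed here.

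The deposited values are log2 RPM (counted reads scaled to a common library size), and the reads behind each value could be recovered. Total reads per embryo ranged from 247667 to 3163026, with medians of 1770010 in Dppa2/4+/+ embryos, 528166 and 1108889 in Dppa2/4+/- embryos of wild-type and heterozygous sires, and 803369 in Dppa2/4-/- embryos. Where an embryo had no read of a gene, its value equals that of 0.9 read and so depends on depth, and every value below the highest such value (1.86) was set to 1.86 in the tests. This is called the common floor. Tests were run on 16412 genes with limma, and a call is a Benjamini-Hochberg adjusted p under 0.05 over all of them. Dppa2 and Dppa4 were lower in Dppa2/4-/- than in Dppa2/4+/+ embryos on the log2 scale (differences of -6.57 and -5.25, adjusted p = 2.45e-18 and 6.48e-16, limma). The Dppa2/4-/- embryos had been assigned by these transcripts, so this difference also follows from the assignment and is no test of genotype. Markers of cumulus or granulosa cells (9 genes, led by Cyp19a1, Tnfaip6 and Ptgs2, 4 to 6 of them without a read in any embryo of a group) summed to at most 17.7 RPM in an embryo. The 4 sperm genes, led by Prm2, Prm1 and Tnp1, summed to at most 0.706 RPM and the 8 genes of later lineages, led by Gata3, Sox2 and Krt8, to at most 24.6 RPM. Limma called 0 of the 8 testable genes of these lists in any comparison. Voom called 3 lineage genes higher in embryos of wild-type sires than in Dppa2/4+/+ embryos, where it called 2052 of the 16412 genes higher. It called 2 higher in the second Dppa2/4+/+ litter, where it called 705 of all genes higher.

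All 5 transcripts were present in the Dppa2/4+/+ embryos. Zfp352 ranged from 4.25 to 7.02 log2 RPM with a median of 5.85 and a mean of 5.78 ± 0.83 (SD, n = 14). Tcstv1 ranged from -0.24 to 4.85 with a median of 2.66 and a mean of 2.38 ± 1.64 (SD, n = 14), and 1 embryo had no Tcstv1 read. Tcstv3 ranged from 0.66 to 6.35 around a median of 4.17. Tmem92 ranged from -0.45 to 5.55 around a median of 4.31. Sp110 ranged from 6.46 to 9.34 with a median of 8.18 and a mean of 8.12 ± 0.77 (SD, n = 14). Each embryo therefore held reads of Zfp352, Tcstv3, Tmem92 and Sp110, and the spread among embryos of this 1 genotype spanned several log2 units for Tcstv1, Tcstv3 and Tmem92.

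Levels of different members were compared per length. On the scale of log2 RPM per kb of annotated exons, the order in Dppa2/4+/+ embryos was Sp110 (5.36 ± 0.77), Zfp352 (4.59 ± 0.83), Tcstv3 (4.47 ± 1.56), Tmem92 (2.70 ± 1.50) and Tcstv1 (1.90 ± 1.64; SD, n = 14 for each). Within an embryo, Zfp352 exceeded Tcstv3 by 0.12 ± 1.20 (SD, n = 14), in 9 of 14 embryos. Sp110 exceeded Zfp352 by 0.77 ± 0.99, in 10 of 14, and Tmem92 exceeded Tcstv1 by 0.80 ± 2.23, in 10 of 14. With all annotated exons each of these mean differences was smaller than its SD between embryos, and none was tested. Tcstv3 exceeded Tmem92 by 1.77 ± 1.40, in 12 of 14 embryos. In the other 3 groups Tcstv3 stood between Sp110 and Zfp352. In the Dppa2/4+/- embryos of wild-type sires Tcstv1 (4.46 ± 2.79, SD, n = 15) was followed by Tmem92 (4.42 ± 1.58), and their difference within embryos was 0.047 ± 1.58. Sp110 has 6781 bases of annotated exons over 9 transcripts but 1921 in the listed one, and with the listed lengths it exceeded Zfp352 in Dppa2/4+/+ embryos by 2.59 ± 0.99 (SD, n = 14), in 14 of 14. Over all groups it then exceeded Tcstv3 in 44 of 44 embryos, against 28 with all exons.

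**Figure D1:**
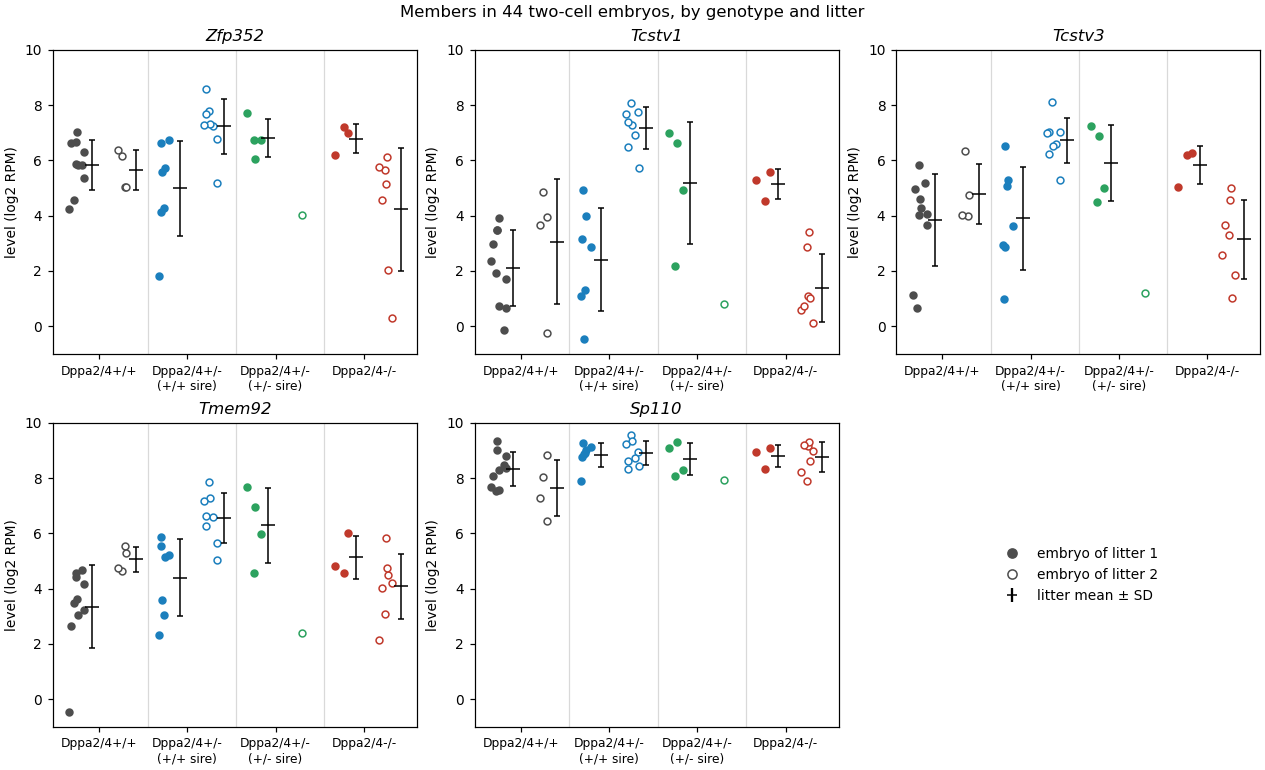
Level of each member in log2 RPM (vertical axis, deposited values) in each of the 44 embryos, by genotype (horizontal axis); filled points are embryos of the first litter, open points of the second, and black bars give the litter mean ± SD. Tcstv1 in the Dppa2/4+/- embryos of wild-type sires lies between -0.46 and 4.91 in the first litter and between 5.74 and 8.08 in the second, whereas Sp110 lies between 7.89 and 9.57 in both.

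In Dppa2/4-/- embryos, which lacked maternal and zygotic Dppa2 and Dppa4, 0 of the 5 members passed the test against Dppa2/4+/+ embryos (limma; 1 had an unadjusted p under 0.05, and limma voom on the recovered reads also called 0). Over all genes tested, 0.0183% (3 genes) were called in this comparison, and 2 of these were Dppa2 and Dppa4. Zfp352 ranged from 0.28 to 7.20 log2 RPM in the 10 Dppa2/4-/- embryos, with a median of 5.71, a log2 difference of -0.62 (95% confidence interval -1.85 to 0.61, adjusted p = 0.652, limma). Tcstv1 ranged from 0.13 to 5.60 with a median of 1.98, and 3 embryos had no read. Its log2 difference was 0.25 (-1.27 to 1.77), that of Tcstv3 was -0.21 (-1.57 to 1.15) and that of Tmem92 was 0.40 (-0.75 to 1.55). Each of these 4 intervals extends past 1 log2 unit on at least 1 side. The values pool litters that stood apart: without the first Dppa2/4-/- litter the differences were -1.32 for Zfp352, -0.63 for Tcstv1, -0.98 for Tcstv3 and 0.083 for Tmem92, and without the second they were 1.01, 2.29, 1.59 and 1.13 in the same order. Without the first Dppa2/4+/+ litter Tcstv1 was -0.48 and Tmem92 -0.66, and without the second Tcstv3 was 0.0051. For all 5 genes the ranges of the 2 groups overlapped.

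Sp110 ranged from 7.91 to 9.30 log2 RPM in Dppa2/4-/- embryos, with a median of 8.96 and a mean of 8.78 ± 0.48 (SD, n = 10). Its log2 difference from Dppa2/4+/+ embryos was 0.66 (0.17 to 1.14), or 1.57-fold, with an adjusted p of 0.209 (limma; range over 19 alternatives 0.073 to 0.97). The 4 Dppa2/4+/+ embryos of the second litter stood at 6.46, 7.27, 8.04 and 8.83, and without that litter the difference was 0.47. Their mean was 7.65, against 8.31 in the first Dppa2/4+/+ litter, so without the first litter the difference was larger. With embryos shifted to an equal median it was 0.34, and this scaling moves the median difference over all genes from 0.09 to -0.22.

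In the Dppa2/4+/- embryos of wild-type sires, Tcstv1 and Sp110 passed the test against Dppa2/4+/+ embryos, both higher, while Tmem92, Tcstv3 and Zfp352 did not. With litter as a random effect neither passed (adjusted p = 0.36 for Tcstv1 and 0.39 for Sp110). Of all genes tested, 4.54% were called and 2.49% were called higher (409 higher and 336 lower, but 320 and 612 with embryos shifted to an equal median and 2052 and 468 with voom). Tcstv1 ranged from -0.46 to 8.08 log2 RPM with a median of 5.74 (n = 15). It was higher than in Dppa2/4+/+ embryos by 2.34 on the log2 scale, with a standard error of 0.68 and an adjusted p of 0.0358 (limma; range over 19 alternatives 9.9e-06 to 1.0). Sp110 ranged from 7.89 to 9.57 with a median of 8.92. It was higher by 0.75, with a standard error of 0.22 and an adjusted p of 0.0374 (0.011 to 0.99 over the alternatives). The log2 difference was 1.55 for Tmem92 (adjusted p = 0.0705), 1.22 for Tcstv3 (adjusted p = 0.275) and 0.41 for Zfp352 (adjusted p = 0.728).

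Both calls were lost when a single litter was left out. Without the second litter of wild-type sires, the difference in Tcstv1 was 0.08 and 0 of 5 members passed, with 6 of the 16412 genes called. Without the first litter it was 4.32 and 4 of 5 passed, with 2339 genes called. Without the first Dppa2/4+/+ litter it was 1.61 (adjusted p = 0.64, limma). The Sp110 difference was 0.71 (adjusted p = 0.21) without the second litter of wild-type sires and 0.78 without the first. It was 0.56 (adjusted p = 0.11) without the second Dppa2/4+/+ litter and 1.22 without the first. With litter means as replicates or without embryos under 500000 reads, 0 of 5 members passed. With the mating number as a block, Sp110 passed (adjusted p = 0.031) and Tcstv1 did not (adjusted p = 0.071).

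In the 5 Dppa2/4+/- embryos of heterozygous sires, 0 of 5 members passed against Dppa2/4+/+ embryos (limma; 1 at an unadjusted p under 0.05, 0 by voom), where 0.0305% of all genes were called. The single embryo of the second litter was lowest of the 5 for every member. Tcstv1 stood at 2.17, 4.93, 6.61 and 7.01 log2 RPM in the first litter and at 0.80 in the second. Tmem92 stood at 4.55, 5.98, 6.96 and 7.68, and at 2.38 in the second litter, and its log2 difference from Dppa2/4+/+ embryos was 1.52 (0.07 to 2.96, adjusted p = 0.557, limma). The differences were 1.67 for Tcstv1, 0.84 for Tcstv3, 0.47 for Zfp352 and 0.41 for Sp110.

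Between Dppa2/4-/- embryos and Dppa2/4+/- embryos of wild-type sires, which differ in the zygotic allele and in litter, 0 of 5 members passed (limma; 3 at an unadjusted p under 0.05, 0 by voom), with 0.0244% of all genes called. The log2 differences were -2.09 for Tcstv1 (adjusted p = 0.343, limma), -1.43 for Tcstv3, -1.15 for Tmem92, -1.03 for Zfp352 and -0.09 for Sp110. The sign depended on the litter. Without the second litter of wild-type sires, 2 genes were called, and floored Tcstv1 averaged 3.10 in Dppa2/4-/- embryos against 2.93. Without the second litter of heterozygous sires, 30 genes were called, and Zfp352 averaged 6.79 in Dppa2/4-/- embryos against 6.19. Without the first litter of wild-type sires, 4 of 5 members passed and 2078 of the 16412 genes were called, and without the first litter of heterozygous sires, 1 member passed and 157 genes were called.

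Littermates give the comparison that litter does not touch. Within the 2 litters of heterozygous sires, Dppa2/4-/- and Dppa2/4+/- embryos gave 0 calls among the 5 members (limma with a litter term; 0 at an unadjusted p under 0.05, 0 by voom; 0.0122% of all genes called). The 2 genes called were Dppa2 and Dppa4, which had served to assign these embryos. In the first litter, Zfp352 stood at 6.19, 6.98 and 7.20 log2 RPM in the 3 Dppa2/4-/- embryos. It stood at 6.05, 6.73, 6.74 and 7.72 in the 4 Dppa2/4+/- embryos, and the ranges overlapped. The log2 difference over both litters was 0.13 for Zfp352 (-1.59 to 1.86), 0.10 for Tcstv1 (-1.52 to 1.71), 0.44 for Tcstv3 (-1.12 to 1.99), -0.20 for Tmem92 (-1.87 to 1.47) and 0.36 for Sp110 (-0.34 to 1.06). The upper end of each interval was at 1.06 or above. Without the single Dppa2/4+/- embryo of the second litter, Tmem92 differed by -1.16, Sp110 by 0.11, Zfp352 by -0.019, Tcstv1 by -0.037 and Tcstv3 by -0.060.

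**Figure D2:**
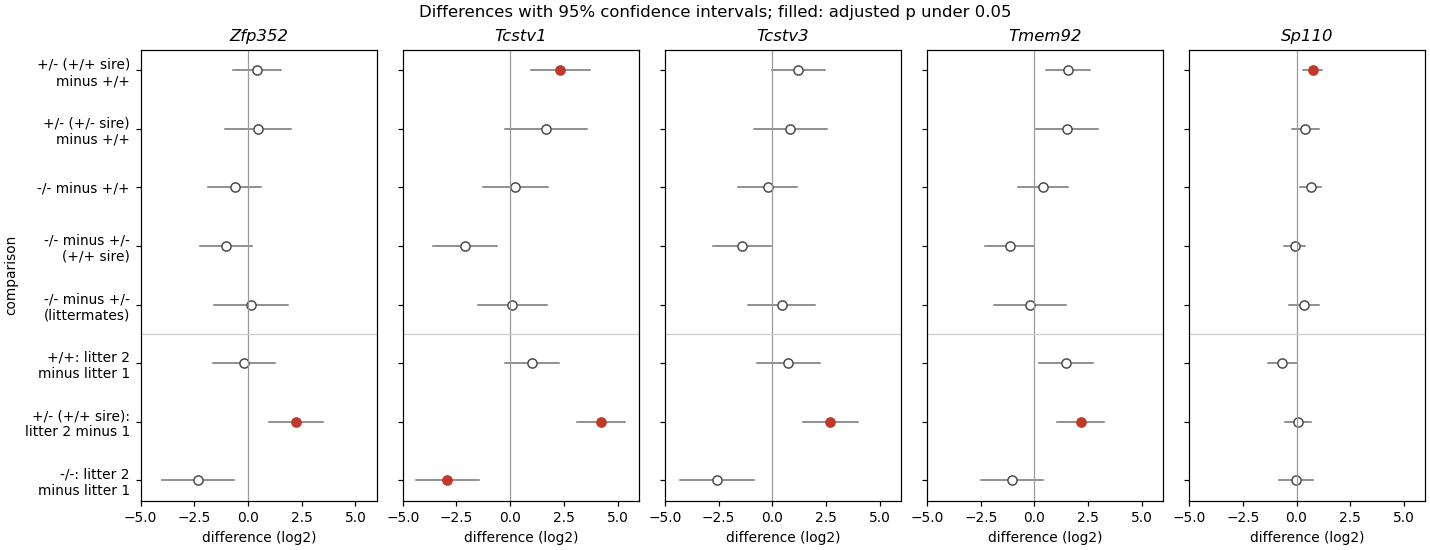
Difference in log2 level (horizontal axis) of each member in 8 comparisons (vertical axis), with 95% confidence intervals from limma; filled points have an adjusted p under 0.05. Above the line are comparisons of genotypes, where Tcstv1 (2.34) and Sp110 (0.75) are filled for embryos of wild-type sires against Dppa2/4+/+ embryos, and below it comparisons of the 2 litters of 1 genotype, where Tcstv1 is filled at 4.23 and at -2.92.

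Embryos of the same genotype differed between litters in up to 4 of the members. Whether litters differed more than genotypes was not tested. In the Dppa2/4+/- embryos of wild-type sires, 4 of 5 members were higher in the second litter than in the first, where 16.6% of all genes were called and 4.96% were higher (814 higher and 1907 lower, but 1872 and 1154 with embryos shifted to an equal median). Tcstv1 had a median of 2.88 log2 RPM in the first litter, with 2 of 7 embryos without a read, and 7.34 in the second. The ranges did not overlap, which held with the second litter higher for 0.987% of all genes tested. The second litter was higher by 4.23 on the log2 scale, with a standard error of 0.55 and an adjusted p of 2.65e-06 (limma), or 18.8-fold on the floored values. Tcstv3 ranged from 1.00 to 6.52 in the first litter and from 5.30 to 8.11 in the second, a log2 difference of 2.70 (adjusted p = 0.00261). Zfp352 ranged from 1.82 to 6.72 and from 5.17 to 8.60, a log2 difference of 2.24 (adjusted p = 0.0103). Tmem92 ranged from 2.304 to 5.88 and from 5.03 to 7.85, a log2 difference of 2.17 (adjusted p = 0.00467). Sp110 had medians of 8.92 and 8.85, and its log2 difference was 0.07 (-0.53 to 0.68). Without embryos under 500000 reads, which left Tcstv1 and Tmem92 called, Zfp352 (2.35, adjusted p = 0.075) and Tcstv3 (2.32, adjusted p = 0.09) no longer passed. Dppa2 and Dppa4 moved the other way in these litters, lower in the second by 1.56 and 1.79 on the log2 scale. The median depth was 663861 reads in the first litter and 524828 in the second, and its part in these differences was not tested.

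In the Dppa2/4-/- embryos the direction was the opposite, with the first litter high. Tcstv1 stood at 4.55, 5.29 and 5.60 log2 RPM in the 3 embryos of the first litter and ranged from 0.13 to 3.40 around a median of 1.02 in the 7 of the second. The difference of -2.92 (adjusted p = 0.0308, limma) was the 1 call among the 5 members, where 1.79% of all genes were called and 0.926% were lower (142 higher and 152 lower, but 110 and 236 with equal medians). Without the second or the third embryo of the first litter the adjusted p was 0.13 and 0.083 (range over 13 alternatives 0.010 to 0.13). Zfp352 ranged from 6.19 to 7.20 in the first litter and from 0.28 to 6.14 in the second (difference -2.34, adjusted p = 0.123), and Tcstv3 from 5.05 to 6.28 and from 1.02 to 5.02 (-2.58, adjusted p = 0.0908). The ranges of Zfp352, Tcstv1 and Tcstv3 did not overlap between the litters, the second being lower, as was so for 3.13% of all genes tested. The difference was -1.05 for Tmem92 (adjusted p = 0.502) and -0.03 for Sp110 (-0.83 to 0.77).

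Between the 2 Dppa2/4+/+ litters, 0 of 5 members passed (limma; 1 at an unadjusted p under 0.05, 0 by voom), with 2.55% of all genes called. Tmem92 ranged from -0.45 to 4.66 log2 RPM in the first litter and stood at 4.65, 4.73, 5.28 and 5.55 in the second, a log2 difference of 1.48 (0.23 to 2.73, adjusted p = 0.213). Sp110 differed by -0.66 (-1.35 to 0.03, adjusted p = 0.369), Tcstv1 by 1.02, Tcstv3 by 0.75 and Zfp352 by -0.18.

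Other genes of the two-cell stage were counted in the same litters. Of 40 listed, 36 were in the table and 34 could be tested. In the second litter of wild-type sires, 16 of the 34 were higher and 3 lower (Pramel7, Pramel6 and Cphx2, named for being the 3), with a median difference of 1.05 on the log2 scale against -0.06 over all genes tested, of which 4.96% were higher. With embryos shifted to an equal median, 21 were higher and 0 lower, while calls over all genes went from 814 to 1872 higher and from 1907 to 1154 lower. The most abundant of the list, Tcl1, a coactivator of the AKT kinases, was higher by 3.48 (standard error 0.59, adjusted p = 7.3e-05, limma), whereas Ubtfl1, an HMG box gene needed for preimplantation development, differed by -0.56 (adjusted p = 0.224) and Pramel7, of a leucine-rich repeat family, was lower (-1.13, adjusted p = 0.00152). In Dppa2/4-/- embryos, 0 were higher and 4 lower in the second litter, namely B020004J07Rik (-2.27), Usp17lc (-3.14), Gm20767 (-2.99) and BC147527 (-3.33), with a median of -0.85. Of all genes, 0.926% were lower there, and with equal medians 7 of the list and 1.44% of all genes were. Between the Dppa2/4+/+ litters 0 of the 34 were called (limma; 4 at an unadjusted p under 0.05, 0 by voom), with a median of -0.14. The list summed to between 2352 and 8854 RPM per embryo in the second litter of wild-type sires and to between 967 and 2660 in the first. It summed to between 2515 and 3534 RPM in the first Dppa2/4-/- litter and to between 895 and 1553 in the second.

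The same list was counted between genotypes. Between Dppa2/4-/- and Dppa2/4+/+ embryos 0 of 34 genes were called (limma; 3 at an unadjusted p under 0.05, 0 by voom), with a median of -0.06 against 0.09 over all genes. In Dppa2/4+/- embryos of wild-type sires, 4 were higher than in Dppa2/4+/+ embryos, namely Tcl1 (2.44), Gm4340 (1.97), Gm20767 (1.93) and AF067063 (1.37), and Pramel7 (-1.13) and Pramel6 (-1.38) were lower. With litter as a random effect, 0 of these 6 calls remained, since 0 of the 16412 genes were called, and voom called 7 higher and 2 lower, where it called 12.5% of all genes higher and 2.85% lower. Of the 7 genes within 100000 bp of Tcstv1 or Tcstv3, 2 were higher in this comparison, against 2.49% of all genes. These calls too were lost with litter as a random effect. In the second litter of wild-type sires 4 of these neighbours were higher, against 4.96% of all genes, and 6 with equal medians, against 11.4%. In the second Dppa2/4-/- litter 4 were lower, against 0.926% of all genes. BC147527 and AF067063 are among them as well as in the list.

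Transcripts typical of the oocyte were counted in the same way. Among 11 oocyte and maternal genes, all tested and each with reads in every group, the most abundant were Omt2b, Dppa3 and Bmp15, a growth factor of the oocyte. Between the litters of wild-type sires, Bmp15 differed by 0.99 (adjusted p = 0.107, limma) and Dppa3 by 0.47 (adjusted p = 0.283). Of the 11, 4 were higher in the second litter of wild-type sires, namely Oosp1 (2.70), Zar1 (1.79), Omt2b (1.64) and Ooep (1.51), against 4.96% of all genes. With equal medians 7 were higher, against 11.4% of all genes. In the second Dppa2/4-/- litter 2 were lower, Omt2b (-1.70) and Oosp1 (-1.83), against 0.926% of all genes, and Bmp15 differed by -1.78 (adjusted p = 0.0792). Between the Dppa2/4+/+ litters limma called 0 of the 11 (3 at an unadjusted p under 0.05). Voom called 3 higher there, against 705 of the 16412 genes. Their summed level ranged from 2640 to 7587 RPM in the first litter of wild-type sires and from 8855 to 17602 in the second, without overlap. It ranged from 8741 to 9883 in the first Dppa2/4-/- litter and from 3332 to 5709 in the second, again without overlap, and from 2751 to 10360 in the Dppa2/4+/+ embryos. Dppa3 (0.71, adjusted p = 0.0444) and Ooep (1.20, adjusted p = 0.0493) were called higher in embryos of wild-type sires than in Dppa2/4+/+ embryos, against 2.49% of all genes. Both calls were lost with litter as a random effect, and 1 gene of the list was called with voom (12.5% of all genes) and 1 with equal medians (1.95%). All 11 differences were above 0, with a median of 0.94 against 0.05 over all genes, and 7 had an unadjusted p under 0.05, as did 18.4% of all genes. In Dppa2/4-/- against Dppa2/4+/+ embryos, 10 of 11 were above 0, with a median of 0.58 against 0.09, and 0 were called. In embryos of heterozygous sires 10 of 11 were above 0 as well, with a median of 0.59 against -0.00068, and 0 were called. The part of these transcripts, or of the age of the embryos within the two-cell stage, in the litter differences of the members was not tested.

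**Figure D3:**
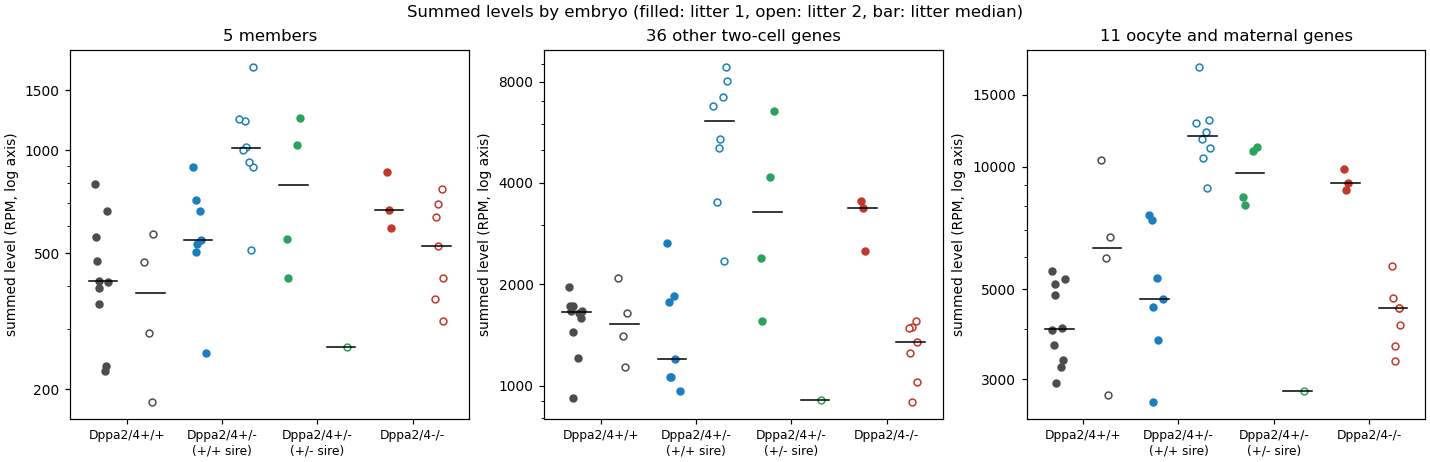
Summed level in RPM (vertical axes, log scale, each panel with its own range) of the 5 members, 36 other two-cell genes and 11 oocyte and maternal genes in each embryo, by genotype (horizontal axis); filled points are the first litter, open points the second, and bars are litter medians. In all 3 panels the second litter of wild-type sires has the highest median (1013, 6092 and 11924 RPM), and in the Dppa2/4-/- embryos the first litter lies above the second for the lists of 36 and 11 genes.

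Relatives of Sp110 and genes of the interferon response were also examined. Of 20 listed, 18 were in the table and 9 had a mean that allowed a test. Over the embryos of a group the 18 genes summed to a median of 70.8 RPM in Dppa2/4+/+ embryos and 165 RPM in Dppa2/4-/- embryos. None of the 9 was called between Dppa2/4-/- and Dppa2/4+/+ embryos (limma; 4 at an unadjusted p under 0.05, 0 by voom), or between embryos of wild-type sires and Dppa2/4+/+ embryos (1 at an unadjusted p under 0.05, 0 by voom). The differences in the first of these comparisons were 0.90 for Stat2 and 1.74 for Irf1, transcription factors of the interferon response, and 1.10 for Sp140, of the SP100 family, with an adjusted p of 0.299, 0.165 and 0.163. Irf3 (-1.80) and Stat2 (-1.38) were lower in the second litter of wild-type sires, where 11.6% of all genes were lower. With embryos shifted to an equal median 2 of the 9 were higher and 1 lower, where 1872 of the 16412 genes were higher and 1154 lower.

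Levels of the members were correlated among embryos of the same genotype and litter. After each gene was centred on its mean within a genotype of a litter, 8 of 10 pairs of members had an adjusted p under 0.05 over 43 embryos (two-sided permutation test with 100000 resamples within those sets, 10 pairs). Tmem92 and Sp110 had r = 0.60 and rho = 0.67 (p = 1e-05 for both, the smallest the permutations can give, adjusted p = 0.0001), and r = 0.54 without the 2 embryos farthest from the median. Tcstv1 and Tcstv3 had r = 0.60 and rho = 0.50 (p = 0.00017 and 0.0068, adjusted 0.00085 and 0.014, r = 0.51 without the 2 farthest), although part of their sequence is shared. Zfp352 went with Tcstv3 (r = 0.57, p = 0.00055, adjusted p = 0.0011; rho = 0.47, p = 0.0043, adjusted p = 0.014; r = 0.54 without the 2 farthest). It did not pass with Sp110 (r = 0.22, adjusted p = 0.15; rho = 0.23, adjusted p = 0.16) or Tmem92 (r = 0.33, adjusted p = 0.086; rho = 0.34, adjusted p = 0.055). For Zfp352 and Tcstv1, r passed (0.36, adjusted p = 0.017) and rho did not (0.33, adjusted p = 0.055).

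The remaining 4 pairs, Tcstv1 and Tcstv3 each with Tmem92 and Sp110, had r between 0.48 and 0.56 and passed on both measures. Within single litters they were uneven: Tcstv1 with Tmem92 had r = 0.85 and 0.71 in the litters of wild-type sires but 0.0088 in the first Dppa2/4+/+ litter and 0.0096 in the second Dppa2/4-/- litter, where Tcstv1 with Sp110 had r = -0.023. On the deposited values without the floor, Tcstv1 with Tmem92 did not pass on r (0.33, adjusted p = 0.065) and did on rho (0.39, adjusted p = 0.034). Before any shift, 8 of 10 pairs passed on r and 7 on rho. With embryos shifted to an equal median, 4 of 10 passed on r and 0 on rho (lowest adjusted p 0.077), and Tmem92 and Sp110 had r = 0.30 (adjusted p = 0.092). Deeper embryos had lower Sp110 (r = -0.39 with log2 total reads, p = 0.015, adjusted p = 0.077 over the 5 members; rho = -0.40) and lower Tmem92 (r = -0.33, adjusted p = 0.11), neither of which passed after adjustment. The part of depth in the pair correlations was not tested.

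**Figure D4:**
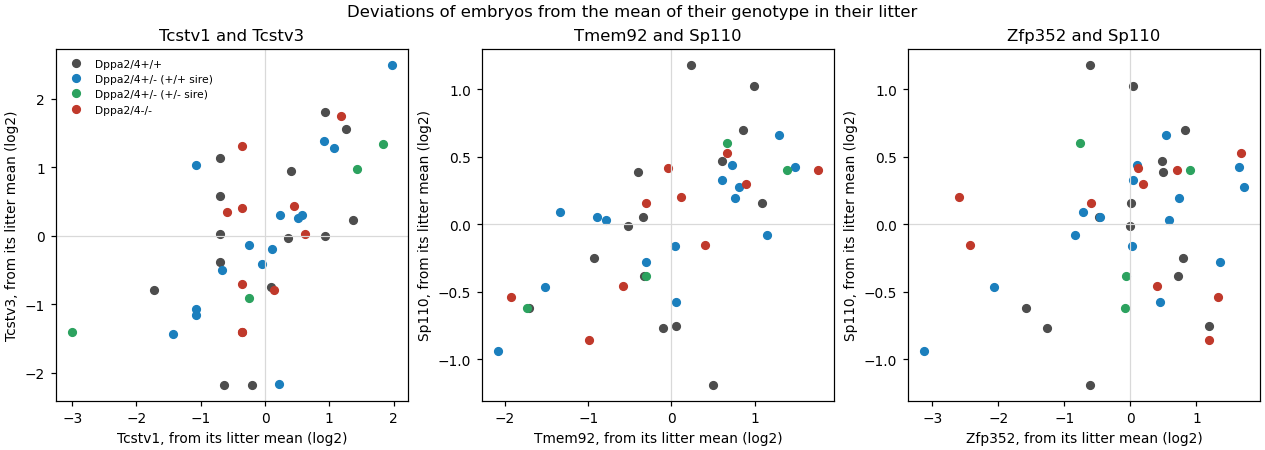
Deviation of each of 43 embryos from the mean of its genotype in its litter, in log2 units on both axes, for 3 pairs of members; points are embryos, coloured by genotype. Tcstv1 with Tcstv3 and Tmem92 with Sp110 both have r = 0.60, and Zfp352 with Sp110 has r = 0.22.

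Among the 15 Dppa2/4+/- embryos of wild-type sires, which share their genotype, 0 of 10 correlations of a member with Dppa2 or Dppa4 passed after centring on litters (permutation test within litters, 100000 resamples; at an unadjusted p under 0.05, 1 on r and 2 on rho). Tmem92 with Dppa4 was below it on both (r = 0.59, p = 0.018, adjusted p = 0.18; rho = 0.61, p = 0.022, adjusted p = 0.18; r = 0.60 without the 2 farthest embryos). Sp110 with Dppa4 was below it on rho (r = 0.47, p = 0.09, adjusted p = 0.38; rho = 0.59, p = 0.036, adjusted p = 0.18; r = 0.38 without the 2 farthest). Apart from Tmem92 with Dppa4, the other 9 correlations had r between -0.49 and 0.47.

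Genes with the most similar pattern over the 44 embryos were found among 6914 genes whose mean reached 3 log2 RPM, as a description, since these values share litters and depth. For Zfp352 these were C87414 (r = 0.83), Ercc4 (0.82), which encodes a DNA repair nuclease, and Wee2 (0.82), an oocyte kinase that holds meiosis. For Tcstv1 they were Mphosph6 (0.93), Gm11381 (0.92) and Tcl1b2 (0.91). For Tcstv3 they were Btg4 (0.87), which recruits the deadenylase that clears maternal mRNA, Tcl1b1 (0.87) and Gm11381 (0.86). For Tmem92 they were Mthfd2 (0.90), a mitochondrial folate enzyme, Tcl1 (0.86) and AU022751 (0.86). For Sp110 they were Slc16a6 (0.87), a monocarboxylate transporter family member, B020004C17Rik (0.85) and Bcl7c (0.85), a subunit of the BAF chromatin remodelling complex. Centred within litters and genotypes, Btg4 (0.80), Meis2 (0.75) and Wee2 (0.74) came first for Zfp352. Pabpn1 (0.74), Gm20521 (0.72) and Tcl1b2 (0.72) came first for Tcstv1, and Umodl1 (0.76), Tcl1b1 (0.76) and Gm49030 (0.75) for Tcstv3. Nup62 (0.83), Gm14453 (0.81) and Mthfd2 (0.81) came first for Tmem92, and H3f3a (0.84), B020004C17Rik (0.84) and Pemt (0.83) for Sp110. Wee2, Tcl1b2, Tcl1b1, Mthfd2 and B020004C17Rik stood in both sets of 3 for their member. Over the 44 embryos without centring, 13 of the 6914 genes were more like Zfp352 than Tcstv3 was, whereas 1989 were more alike than Sp110 was. For Tmem92, 1015 genes were more alike than Sp110 (r = 0.49), and for Tcstv1, 34 were more alike than Tcstv3 and 1223 than Sp110. An uncentred correlation of the size seen between some pairs of members was thus shared with many other genes. No such count was made for the centred values of the pairs above.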

How the data were processed

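The series holds 44 single two-cell embryos from 6 litters, and group and litter were taken from the labels. Reads were trimmed by the authors with Trim Galore 0.6.5 and cutadapt 2.3 and mapped to GRCm38 with HISAT2 2.1.0, and those with a MAPQ score under 20 were dropped. SeqMonk counted them over 35269 mRNA probes, ignoring strand. The deposited unit is log2 RPM, a scale read from the values. Whole reads were recovered from the zero-read step (99.9997% of values within 0.05 read). Totals ranged from 247667 to 3163026. About 3 reads are needed to tell a gene from 0, and this covers counting error only.

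Genes with a mean of at least 0 (16412) entered limma (version 3.58.1, R version 4.3.3, eBayes with trend) after the common floor, with the 4 groups, or the 8 sets of 1 genotype in 1 litter, in a single model. The comparison within litters used Dppa2/4-/- and Dppa2/4+/- littermates with a litter term. Embryos of a litter are not separate matings, so p-values measure the spread between embryos.

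Members and lists were chosen with earlier results of these data known. Named were the 5 members, the 3 genes most like each, the 3 most abundant of each list, Dppa2, Dppa4 and, after their values were seen, list genes that were called. Levels per length used GENCODE exons, and promoters came from RefSeq. Alternatives covered the floor, filters, scaling, pseudocounts, voom on recovered reads, weights, depth, litter, mating number, and leaving out litters or embryos. Negative binomial count models were not run. Figures were drawn with matplotlib 3.10.9.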

Additional observations from a re-analysis of the deposited data

Results flagged for a closer look

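Of 40 sets of values, each a member in a group or in a litter of 4 to 10 embryos, 2 had an embryo far from the others, where chance gives about 1 in 20. Tmem92 stood at -0.45 log2 RPM, from 1 read, in replicate 10 of the Dppa2/4+/+ embryos, while the other 9 embryos of its litter lay between 2.63 and 4.66. Sp110 stood at 7.89 in replicate 3 of the Dppa2/4+/- embryos of wild-type sires, while the other 6 of its litter lay between 8.75 and 9.26.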

How the results depend on the processing

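Members and lists were seen in few litters, genotype and litter cannot be told apart outside the litters of heterozygous sires, and low reads limited Tcstv1 (under 3 reads in 10 of 44 embryos). The mating number was shared across groups, and the litter differences it would pair had r = 0.45, -0.44 and -0.76 over 6919 genes. These differences also hold depth and litter, so they cannot show whether matings of 1 number shared a batch, and this was not tested. With the mating number as a replicate block, 1 member instead of 2 was called between embryos of wild-type sires and Dppa2/4+/+ embryos. Tcstv1 between Dppa2/4-/- and Dppa2/4+/+ embryos was then -0.19. The cause of the changes below was not tested.

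Of single results under an alternative, 606 kept direction and side of the threshold, 30 lost the call, 14 gained it and 50 changed sign. Of counts of calls, 114 stayed within 1.5 times and 23 did not. Between embryos of wild-type sires and Dppa2/4+/+ embryos, 2 members were called, but 0 with no filter, without embryos under 500000 reads, with litter as a random effect or with litter means, and 1 with equal medians, voom, array weights or only the 2 groups. Leaving out a litter gave 0 to 4, and 0 to 4 against 0 between Dppa2/4-/- embryos and those of wild-type sires. Without embryos under 500000 reads, 2 instead of 4 were called between the litters of wild-type sires. Between the Dppa2/4-/- litters, 1 was called, but 0 without the floor, with no filter or without embryos under 500000 reads, 2 with a mean of at least 3 or equal medians, and 0 to 1 without an embryo. With equal medians, 4 instead of 8 pairs of members passed on r, and 0 instead of 7 on rho (adjusted p 0.077 to 0.94).

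Signs changed as follows. For Dppa2/4-/- against Dppa2/4+/+, Tcstv1 was -0.064 with equal medians and -0.19 with log2(RPM + 1), and Tcstv3 was 0.083 with voom and 0.14 with litter means. For Dppa2/4+/- embryos of heterozygous sires against Dppa2/4+/+, litter means gave Zfp352 -0.33 and Tcstv3 -0.53. Between littermates, equal medians gave Zfp352 -0.17 and Tcstv1 -0.21, no litter term gave Zfp352 -1.10, Tcstv1 -1.42 and Tcstv3 -1.05, and the first litter alone gave Zfp352 -0.019, Tcstv1 -0.037 and Tcstv3 -0.060. There Tcstv1 was also -0.090 with log2(RPM + 1), -0.080 with log2(RPM + 4) and -0.021 with voom, and Tmem92 was 0.33 with array weights. The r of Tcstv3 and Dppa4 was -0.12 with equal medians.

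Leaving out a litter or an embryo gave these ranges. Dppa2/4-/- against Dppa2/4+/+: Zfp352 -1.32 to 1.01, Tcstv1 -0.63 to 2.29, Tcstv3 -0.98 to 1.59 and Tmem92 -0.66 to 1.13. Embryos of wild-type sires against Dppa2/4+/+: Zfp352 -0.79 to 1.46 and Tcstv3 -0.22 to 2.48. Dppa2/4+/- embryos of heterozygous sires against Dppa2/4+/+: Zfp352 -1.76 to 1.03, Tcstv1 -0.99 to 2.33, Tcstv3 -2.39 to 1.65, Tmem92 -1.61 to 2.297 and Sp110 -0.21 to 0.88. The low end of each of these ranges rests on the single embryo of the second litter, left when the first litter was dropped. Dppa2/4-/- against embryos of wild-type sires: Zfp352 -2.08 to 0.60, Tcstv1 -4.07 to 0.17, Tcstv3 -2.69 to 0.38 and Tmem92 -2.16 to 0.0012. Littermates: Zfp352 -0.019 to 0.34, Tcstv1 -0.52 to 0.49, Tcstv3 -0.060 to 0.76 and Tmem92 -1.16 to 0.18. Between litters, Zfp352 in Dppa2/4+/+ embryos was -0.42 to 0.028, and Sp110 in Dppa2/4-/- embryos -0.26 to 0.12.

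Over all genes, calls between embryos of wild-type sires and Dppa2/4+/+ embryos numbered 745, but 4054 without the floor, 2520 with voom, 390 with no filter, 171 without embryos under 500000 reads, 0 with litter as a random effect, 2339 without the first litter of wild-type sires and 6 without the second. For Dppa2/4-/- against Dppa2/4+/+ they numbered 3, and 0 to 249 over the alternatives, and against embryos of wild-type sires 4, and 0 to 2078. For Dppa2/4+/- embryos of heterozygous sires they numbered 5, and 0 to 114. Between litters they numbered 419, and 26 to 938, in Dppa2/4+/+ embryos, 2721, and 1118 to 3067, in those of wild-type sires, and 294, and 62 to 551, in Dppa2/4-/- embryos. Between littermates they numbered 2, but 19582 with no filter, a fit that includes genes with the same floored value in every embryo.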
